A study of Mus musculus with 71 samples.

Results

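Sln, Ryr1, Chrna1, Atp2a1, Casq1, Casq2, Pgam2, Pygm and Ckm are genes best known from striated muscle, where they serve calcium handling and energy supply. They were followed here in mouse brain after deletion of GLP (gene Ehmt1) or G9a (gene Ehmt2), 2 partner enzymes that methylate lysine 9 of histone H3, a mark of silenced genes. The 9 genes were chosen by name, with earlier results of these data known. Their counts beside those of all genes are therefore a description and no independent evidence. They are 9 of the 18193 genes with a probe set on the arrays and have 12 of the 34945 probe sets that carry a single gene symbol, and a gene with several was read from the brightest of them on average over the 71 arrays.

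RNA of single brain regions filled 59 arrays in 16 groups. Mutants carried Camk2a-Cre with floxed GLP (Camk2a-Cre; GLPfl/fl) or floxed G9a (Camk2a-Cre; G9afl/fl), and controls were littermates with the floxed alleles of the same gene; hippocampus, hypothalamus, striatum and cortex were taken from each line at 10 to 14 weeks of age in the sample annotation and 12 in the extraction protocol. Each group had 4 arrays, except 3 for the G9a hippocampus controls and 2 each for the G9a cortex mutants and controls. The Camk2a promoter drives Cre in forebrain neurons, so glia, vessels and other cells without Cre contributed undeleted RNA to each extract. The other 12 arrays held polyribosome mRNA of striatal medium spiny neurons in 4 groups of 3 pools of 5 mice: Drd1-Cre; Drd1-bacTRAP; G9afl/fl against Drd1-bacTRAP; G9afl/fl, and Drd2-Cre; Drd2-bacTRAP; G9afl/fl against Drd2-bacTRAP; G9afl/fl. The bacTRAP transgenes tag ribosomes in neurons of the Drd1 or Drd2 dopamine receptor type, and every group of both designs, controls included, carried floxed alleles. A mutant lacking both enzymes is named in the protocols and was not analysed here. In bulk RNA, fewer cells of a type and less RNA per cell cannot be told apart.

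In a muscle fibre, the acetylcholine receptor at the nerve contact (alpha subunit, Chrna1) starts the electrical signal, and the ryanodine receptor Ryr1 then releases calcium from the sarcoplasmic reticulum. Calsequestrin, Casq1 in fast skeletal muscle and Casq2 mainly in heart and slow muscle, buffers calcium inside that store, the pump SERCA1 (Atp2a1) returns calcium to it, and sarcolipin (Sln) is a small membrane peptide that binds and restrains the pump. The muscle forms of phosphoglycerate mutase (Pgam2), glycogen phosphorylase (Pygm) and creatine kinase (Ckm) supply energy. Brain neurons mostly use related genes for these tasks, such as Ryr2, Ryr3, Atp2a2, Pgam1, Pygb and Ckb, and Ryr1 is also known from neurons.

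Many promoters of muscle genes hold sites for myogenic bHLH factors (the E-box) and for MEF2, a factor family that neurons also express. RefSeq promoter sequence (build GRCm38.p6) was at hand for 8 of the 9 members, all but Sln, and was searched over the 250 bases before the start site on both strands for the E-box CANNTG and for the MEF2 and CArG consensus sites. The promoters of the 4 members below are shown because the members differ in how they changed: Pgam2 was higher in mutants in every region, Casq2 in the striatum, Chrna1 in hippocampus and cortex, and Ryr1 was lower in the striatum. Sequences run 5′ to 3′, and capitals mark E-box and MEF2 matches.
Pgam2, chr11:5803797-5804046, - strand: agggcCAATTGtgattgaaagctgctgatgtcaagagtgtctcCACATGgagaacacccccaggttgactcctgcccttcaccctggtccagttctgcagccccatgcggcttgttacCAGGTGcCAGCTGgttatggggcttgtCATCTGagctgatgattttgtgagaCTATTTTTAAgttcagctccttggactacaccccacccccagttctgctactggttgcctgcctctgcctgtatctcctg
Casq2, chr3:102086165-102086414, + strand: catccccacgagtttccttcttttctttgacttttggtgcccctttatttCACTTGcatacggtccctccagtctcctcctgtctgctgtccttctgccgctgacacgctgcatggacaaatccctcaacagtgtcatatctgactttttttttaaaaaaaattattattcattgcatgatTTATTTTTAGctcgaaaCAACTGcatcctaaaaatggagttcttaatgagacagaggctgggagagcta
Chrna1, chr2:73580339-73580588, - strand: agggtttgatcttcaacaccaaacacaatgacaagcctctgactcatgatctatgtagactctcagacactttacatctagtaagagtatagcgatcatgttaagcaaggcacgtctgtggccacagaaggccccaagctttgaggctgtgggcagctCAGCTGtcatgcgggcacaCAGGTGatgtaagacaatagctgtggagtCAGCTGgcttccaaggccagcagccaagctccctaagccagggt
Ryr1, chr7:29125152-29125401, - strand: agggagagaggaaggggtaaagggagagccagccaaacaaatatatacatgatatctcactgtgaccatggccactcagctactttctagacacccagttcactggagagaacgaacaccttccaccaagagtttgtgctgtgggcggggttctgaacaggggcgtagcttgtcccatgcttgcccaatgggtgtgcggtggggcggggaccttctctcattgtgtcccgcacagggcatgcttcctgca

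Pgam2 and Casq2 were the members with a MEF2 match, 1 each, at -80 to -71 and at -69 to -60 from the start site. Of 32817 promoters of the same length, 2.92% held a MEF2 match. E-boxes numbered 5 in Pgam2, 3 in Chrna1, 2 each in Casq1, Casq2 and Pygm, 1 each in Atp2a1 and Ckm and 0 in Ryr1; 66.2% of all promoters held at least 1, and 31.8% at least 2. None of the 8 had a CArG match, which 1.47% of promoters had, and no match of 1 motif overlapped a match of another. A match describes the letters and is not a measured site.

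Levels are log2 values relative to the median of the array, so 0 is the middle of all probe sets and 1 is a level 2 times that median; the arrays are normalised intensities with no read depth, and the number of arrays limits the precision. The labelled regions carried their own markers: in controls the summed level of 10 hypothalamus markers was 408 to 598 in hypothalamus and at most 14.2 elsewhere in whole tissue, and that of 9 striatum markers was 1260 to 1570 in striatum and at most 328 elsewhere. Of the deleted genes, Ehmt2 fell in all 4 regions of the G9a line, by 1.02 to 1.76 on the log2 scale, and Ehmt1 fell by 0.58 in hippocampus, 0.46 in striatum and 0.76 in cortex of the GLP line, with -0.16 in hypothalamus (adjusted p = 0.711, limma). In the pools labelled mutant, the Ehmt2 difference was -2.04 ± 0.75 (SE) for Drd1 and -0.08 ± 0.75 for Drd2, neither past the threshold (adjusted p = 0.943 and 1), so the Drd2 labels have no check from the targeted gene. The low end of the intensity scale differed between array sets. The 1st percentile was -3.45 to -3.33 in cortex arrays of both lines. It was -3.21 to -3.13 in Drd2 pools and -2.85 to -2.70 in Drd1 pools. In the other tissue arrays it was -3.96 to -3.75 in the GLP line and -4.03 to -3.52 in the G9a line. Ckm, below the median in every array, read -1.32 to -0.97 in those GLP arrays and -2.85 to -1.93 in those G9a arrays. In cortex arrays of both lines Ckm read -2.06 to -1.70. Low levels are therefore not compared across these sets, nor between the lines outside cortex.

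Each mutant group was compared with its control in limma, with Benjamini-Hochberg adjusted p under 0.05 as the call. A gene was tested where it exceeded 0 in at least as many arrays as the smaller group holds, and the fit was repeated with every gene tested. Because a gene silent in controls enters that filter through the mutants alone, counts over the members that entered are a description, and the counts over all 9 stand beside them.

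In the GLP hippocampus, Sln and Pgam2 rose among the 6 members tested; 2.05% of 11681 genes were called, and 1.73% rose. With no filter, 4 of the 9 rose there, Chrna1 and Atp2a1 being the others, against 1.53% of all genes. In the GLP hypothalamus Pgam2 alone rose, of 4 tested (1.01% of 11531 genes called, 0.824% up), and 1 of 9 with no filter (0.753% up). In the GLP striatum Pgam2 and Casq2 rose, of 5 tested (1.67% of 11546 genes called, 1.15% up), and 2 of 9 with no filter (1.07% up). The GLP cortex had Sln and Pgam2 up, of 5 tested (1.54% of 11586 genes called, 1.31% up), and 3 of 9 with no filter, Chrna1 being the other (1.04% up).

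In the G9a hippocampus Sln, Chrna1 and Pgam2 rose, of 7 tested (2.72% of 11738 genes called, 2.25% up), and 3 of 9 with no filter (1.72% up). The G9a hypothalamus had 1 call of 3 tested, a fall of Pygm (2.34% of 11733 genes called, 1.59% up and 0.75% down); with no filter Pgam2 rose too (1.33% up). In the G9a striatum Pgam2 and Casq2 rose and Ryr1 fell, of 5 tested (3.02% of 11567 genes called, 1.87% up and 1.15% down); with no filter Sln rose too (1.61% up). In the G9a cortex Sln and Pgam2 rose, of 5 tested (0.728% of 11679 genes called, 0.625% up), and 3 of 9 with no filter, Chrna1 being the other (0.456% up). Of the 16 calls, 7 were of Pgam2 and 4 of Sln.

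**Figure D1:**
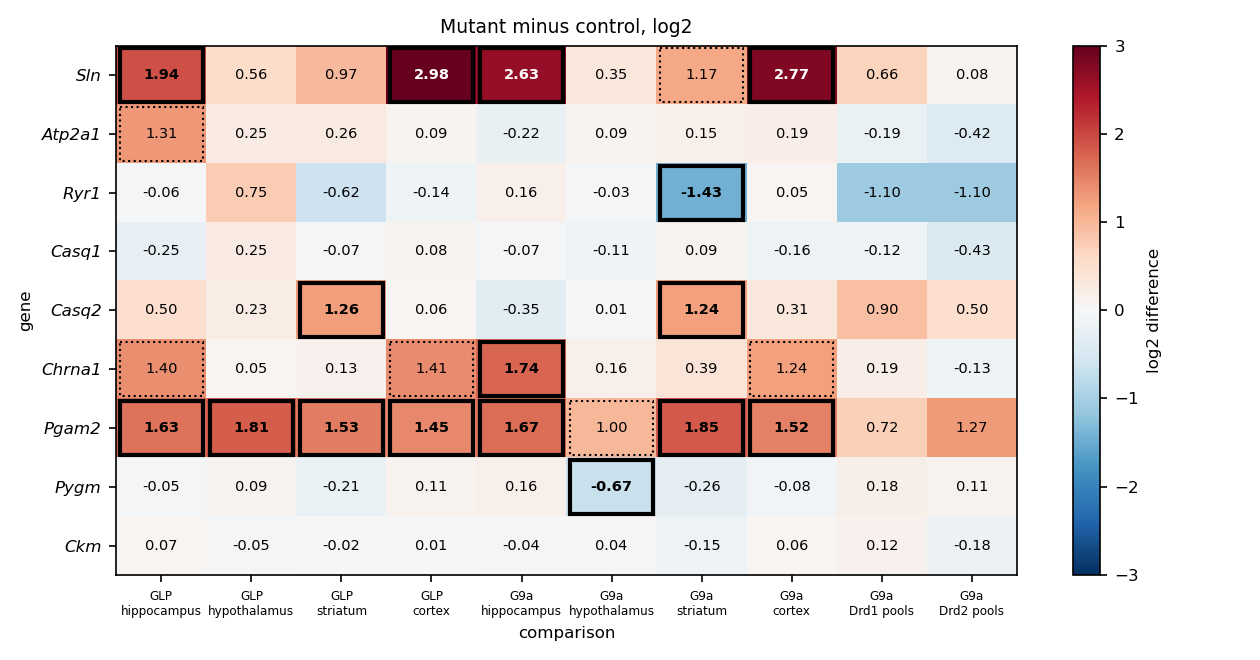
Log2 difference, mutant minus control, of each of the 9 genes (rows) in each of the 10 comparisons (columns), with colour from -3 to 3. Solid boxes mark adjusted p under 0.05 in limma and dotted boxes calls made only when every gene was tested with no filter; Pgam2 is boxed in all 8 tissues, Sln most strongly in hippocampus and cortex (1.94 to 2.98), and the Ryr1 fall of -1.43 stands in the G9a striatum.

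Pgam2 was the member that moved most widely. It was higher in mutants in all 10 comparisons, by 0.72 to 1.85 on the log2 scale, with a mean difference of 1.56 over the 8 tissues. The groups did not overlap in 7 of the 8 tissues. Of all genes, the share whose groups did not overlap was 5.42% in hippocampus, 3.44% in hypothalamus, 4.7% in striatum and 7.59% in cortex of the GLP line, and 9.21%, 3.69%, 9% and 50.8% in the same regions of the G9a line. Only 14 of the 18193 genes (0.077%) were called up in at least 7 of the 8 tissue comparisons.

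In the GLP hippocampus the 4 mutant arrays read 3.67, 3.51, 3.81 and 3.94 for Pgam2 and the controls 2.29, 2.41, 1.53 and 2.19, a rise of 1.63 ± 0.23 (SE; 3.10-fold, adjusted p = 1.18e-06, limma). In the GLP striatum they read 4.02, 3.63, 3.69 and 3.73 against 2.35, 2.33, 1.90 and 2.39, a rise of 1.53 ± 0.23 (2.88-fold, adjusted p = 7.10e-06). The GLP cortex gave 3.67, 3.11, 3.19 and 3.62 against 2.04, 2.04, 1.64 and 2.06, a rise of 1.45 ± 0.23 (2.73-fold, adjusted p = 1.40e-05). Every mutant array thus lay above every control array in these regions. Control levels in these regions were well above the array median, so the rise was of a gene already detected.

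In the G9a line, Pgam2 in the hippocampus arrays read 2.81, 3.73, 3.63 and 3.70 in mutants and 1.36, 2.08 and 1.97 in controls (difference 1.67 ± 0.25, 3.17-fold, adjusted p = 3.15e-06). Its striatum read 2.99, 3.43, 3.36 and 3.43 against 1.70, 1.29, 1.40 and 1.40 (1.85 ± 0.23, 3.61-fold, adjusted p = 5.95e-08). Its cortex had 2 arrays a group, 3.14 and 3.24 against 1.58 and 1.77 (1.52 ± 0.32, adjusted p = 0.0043), and this call was lost when mutant 1, mutant 2 or control 1 was left out (adjusted p up to 0.156). Groups did not overlap in any of these 3 regions.

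Hypothalamus stood apart for Pgam2 by its low level. GLP mutants read 1.45, 0.75, 0.26 and 1.02 against controls of -0.60, -1.24, -0.89 and -1.04, all below the array median (difference 1.81 ± 0.23, adjusted p = 2.17e-07). The mutant mean there was 1.83-fold above the array median, a lower bound of the change that does not rest on values below it. In the G9a hypothalamus, mutants at 0.00, 0.10, -0.05 and -0.55 overlapped the 4 controls, which ran from -1.63 to -0.23; the gene did not enter the filter, and with no filter the difference of 1.00 ± 0.23 was called (adjusted p = 0.00938). The size of the Pgam2 change did not differ detectably across regions, with adjusted p = 1 in the GLP line and 0.605 in the G9a line.

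**Figure D2:**
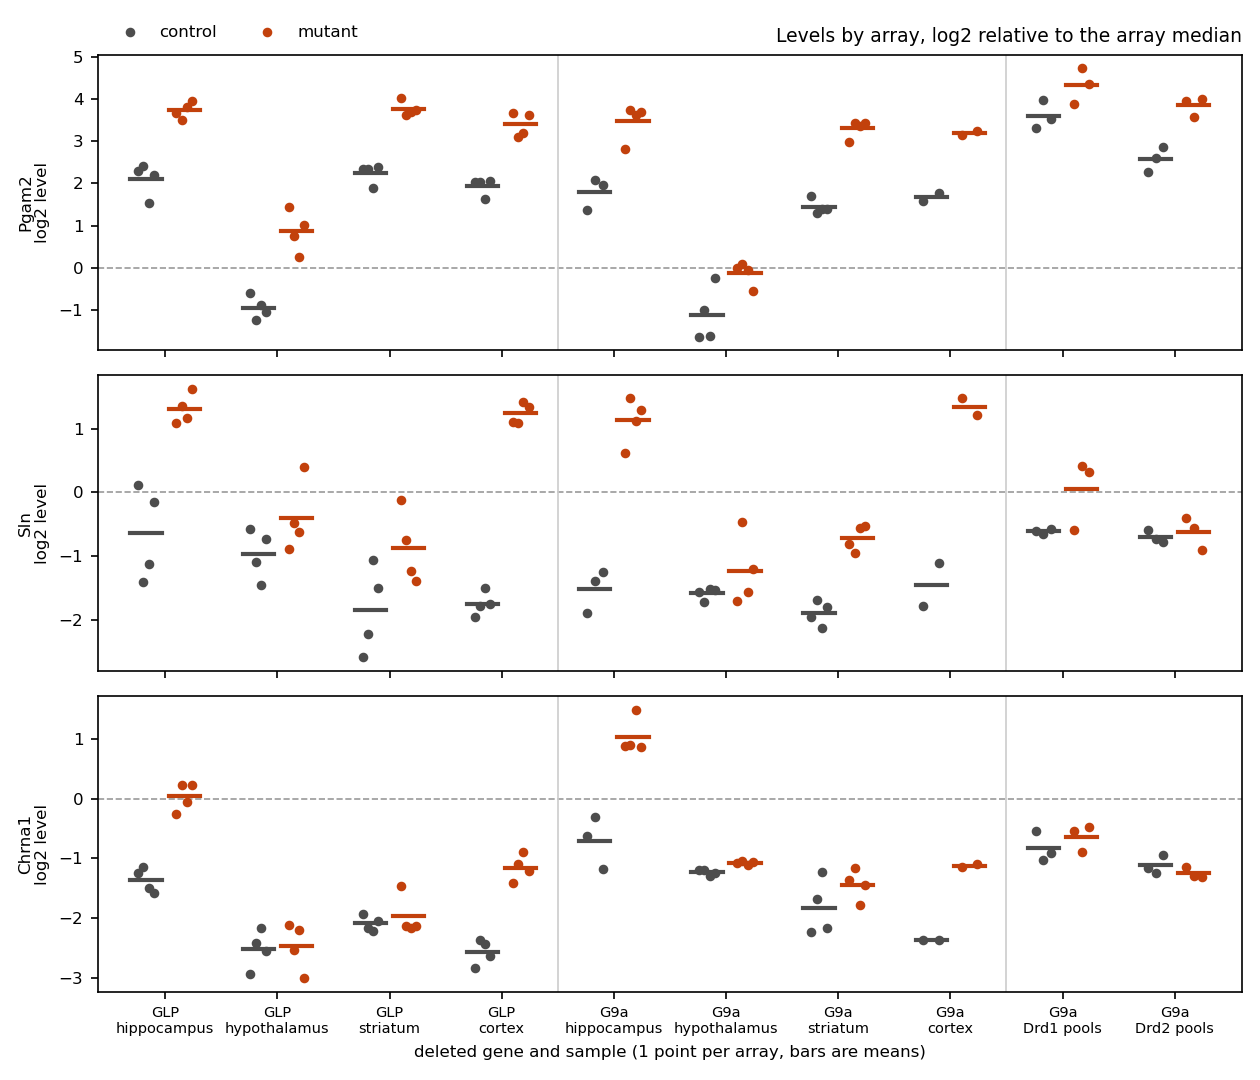
Level of Pgam2, Sln and Chrna1 in each of the 71 arrays (points; log2, dashed line at the array median), controls in grey and mutants in orange, with group means as bars. Mutant Pgam2 points lie above all controls in every tissue but the G9a hypothalamus, while Sln and Chrna1 separate most widely in hippocampus and cortex of both lines.

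Of the other 2 energy genes, Pygm was measured above the array median in all 71 arrays, from 0.56 to 3.03, and its differences ran from -0.67 to 0.18. In the G9a hypothalamus, where control Pygm was high at 2.79, 2.69, 2.90 and 3.03, mutants read 2.84, 1.76, 2.16 and 1.96, a fall of 0.67 ± 0.16 on the log2 scale to 62.8% of control (adjusted p = 0.0101, limma). The groups overlapped there because mutant 1 sat among the controls, and the call was lost when the 2 groups were fitted alone (adjusted p = 0.773). Ckm was below the array median in all 71 arrays, from -2.85 to -0.02, so the arrays give no level for it; its differences lay between -0.18 and 0.12.

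Sln, the SERCA restraint, rose in hippocampus and cortex of both lines. In the GLP cortex mutants read 1.10, 1.09, 1.41 and 1.34 and controls -1.94, -1.78, -1.50 and -1.75, a difference of 2.98 ± 0.29 (adjusted p = 1.09e-10, limma). In the G9a cortex the 2 mutants read 1.47 and 1.21 and the 2 controls -1.78 and -1.10 (2.77 ± 0.41, adjusted p = 1.37e-05). In the G9a hippocampus mutants read 0.62, 1.48, 1.12 and 1.29 and controls -1.88, -1.39 and -1.24 (2.63 ± 0.31, adjusted p = 2.03e-08). No control array in these 3 comparisons reached the array median, so the gene entered the filter through the mutants, and the change was at least 2.35-fold, 2.53-fold and 2.19-fold, the mutant means over the array median. With no filter the adjusted p were 1.48e-10, 1.77e-05 and 2.55e-08.

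The GLP hippocampus gave 1.08, 1.35, 1.16 and 1.62 for Sln in mutants and 0.11, -1.40, -1.12 and -0.15 in controls (difference 1.94 ± 0.29, adjusted p = 6.17e-06). Controls 1 and 4 were higher than the other 2, though still below every mutant. Those 2 arrays also held more of 11 choroid plexus markers, with summed levels of 1020 and 922 beside 461 and 321 in controls 2 and 3 and 1110 to 1280 in the mutants, and 10 of the 11 markers rose in this comparison. The Sln difference was 2.19 without control 1 and 2.10 without control 4. Leaving out either had to raise the difference, since these controls held the highest Sln of their group. Those values are therefore no check on the part of the markers. In the G9a hippocampus the marker sum was 146 to 527 in mutants and 81.1 to 195 in controls, with 1 marker called, and in the G9a cortex it was 68.8 to 600 and 33.4 to 137, with none called. The part of these markers in the hippocampus differences was not tested. In the GLP cortex the marker sum was 28.5 to 47.1 in mutants and 28.9 to 143 in controls, and none of the 11 was called. In the GLP hypothalamus mutant 4 had a sum of 762 with Sln at 0.40, beside sums of 25.8 to 51 with Sln at -0.89 to -0.47 in the other mutants, and control 3 had 598 with -1.45. In the G9a striatum controls 2 to 4 had sums of 917 to 1270 with Sln at -2.12 to -1.68. Drd1 mutants 2 and 3 had sums of 1510 and 1010 with Sln at 0.42 and 0.32, beside 147 with -0.59 in mutant 1, and Drd1 controls 2 and 3 had 1550 and 1200 with -0.65 and -0.57.

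**Figure D3:**
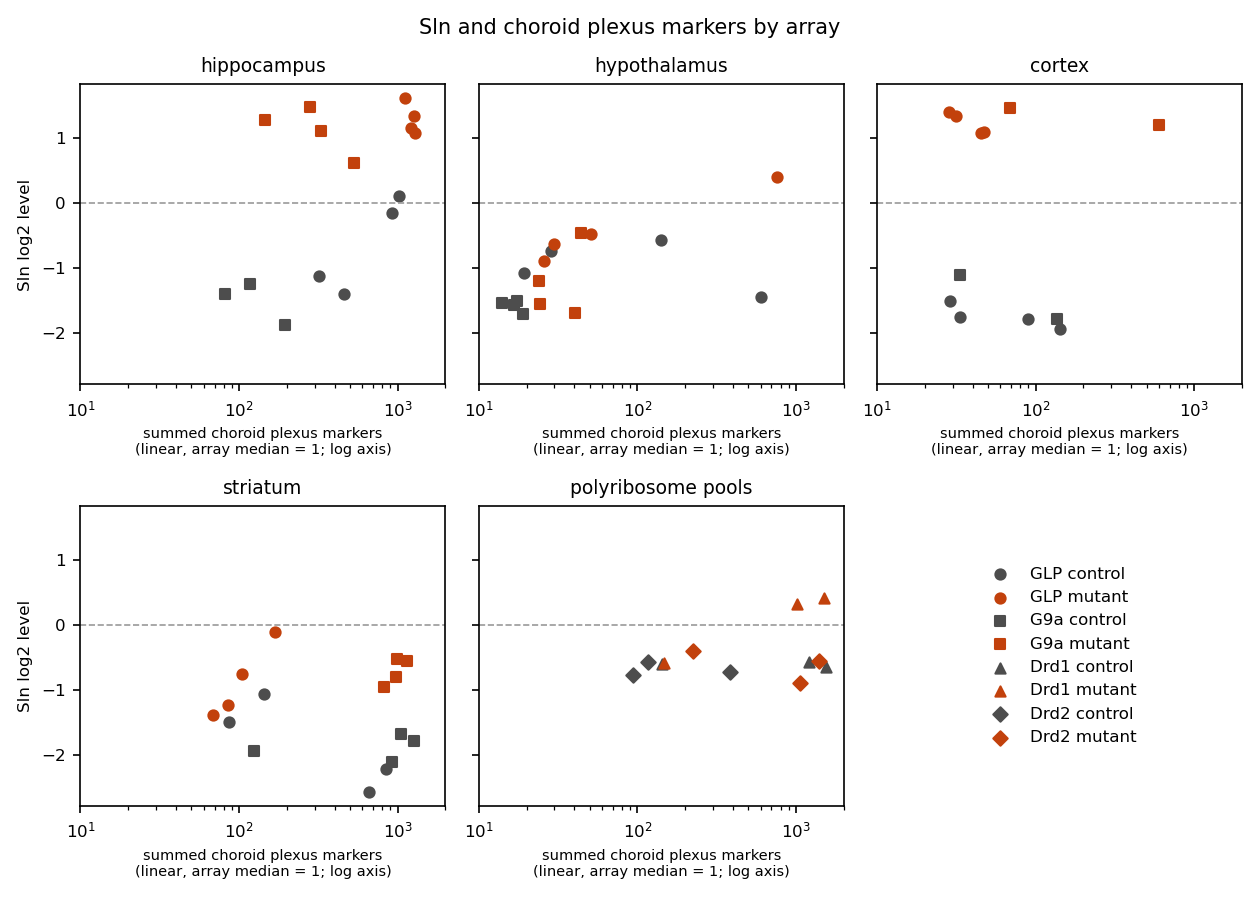
Sln level (log2, dashed line at the array median) against the summed linear level of 11 choroid plexus markers (log axis, array median = 1) for each of the 71 arrays; circles are the GLP line, squares the G9a line, triangles Drd1 pools and diamonds Drd2 pools, with controls in grey and mutants in orange. In cortex the mutants with Sln at 1.09 to 1.47 span sums from 28.5 to 600. In the GLP hippocampus mutants exceed controls in both, but among mutants the highest Sln, 1.62, goes with the lowest sum, 1110. In the GLP hypothalamus the highest Sln, 0.40, goes with a sum of 762, and the lowest, -1.45, with 598. In striatum every array has Sln below the median.

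Striatum and hypothalamus showed smaller Sln differences. In the G9a striatum, mutants at -0.81, -0.95, -0.55 and -0.52 lay above controls at -1.94, -1.68, -2.12 and -1.79, but all were below the array median; the difference of 1.17 ± 0.29 was called with no filter (adjusted p = 0.012). In the GLP striatum the difference was 0.97 ± 0.29 (adjusted p = 0.0949 with no filter), and the groups overlapped. Hypothalamus gave 0.56 and 0.35 in the GLP and G9a lines, also overlapping. The Sln change differed across the 4 regions in both lines (adjusted p = 0.000466 in GLP, where 1.08% of genes were called, and 0.000566 in G9a, where 1.37% were). A second Sln probe set stayed between -3.06 and -0.70 in every array and differed by -0.16 to 0.14 between groups, so the rise was seen by 1 of the 2 probe sets, and averaging both moved the GLP hippocampus difference from 1.94 to 0.93 with the call kept (adjusted p = 0.000184).

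Atp2a1, the pump that Sln binds, was above the array median in 1 of 71 arrays. That array was mutant 4 of the GLP hippocampus at 1.08, beside -0.70, -1.82 and -0.65 in the other mutants and -2.21, -2.04, -1.99 and -1.09 in controls. The groups overlapped, and the difference of 1.31 ± 0.31 was called with no filter (adjusted p = 0.00915). It also had the highest Sln and Casq2 levels of its group, 1.62 and 1.34. In the other 7 tissues the Atp2a1 difference was -0.22 to 0.26.

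Ryr1, the calcium release channel, fell in the G9a striatum. In the G9a striatum mutants read 2.16, 2.38, 2.37 and 2.54 and controls 3.98, 3.78, 3.92 and 3.49, a fall of 1.43 ± 0.28 on the log2 scale to 37.1% of control (adjusted p = 0.000783, limma). A second Ryr1 probe set gave the same difference, -1.43 ± 0.28 (adjusted p = 0.00117), from 0.49 to 1.07 in mutants and 2.08 to 2.53 in controls. In the GLP striatum mutants at 1.28, 1.55, 1.54 and 1.55 overlapped controls at 2.08, 3.17, 1.26 and 1.89, and the difference of -0.62 ± 0.28 was not called (adjusted p = 0.417). The GLP and G9a differences in striatum were themselves 0.81 ± 0.40 apart (adjusted p = 0.759), so a difference between the lines was not shown. The second probe set gave -0.90 ± 0.28 in the GLP striatum (adjusted p = 0.18). In hippocampus and cortex of both lines Ryr1 differed by -0.14 to 0.16. In the GLP hypothalamus, where it was below the array median throughout, it differed by 0.75 ± 0.29 (adjusted p = 0.32 with no filter) and the second probe set by -0.60 ± 0.28 (adjusted p = 0.542), and in the G9a hypothalamus by -0.03.

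The calsequestrins split. Casq2 rose in the striatum of both lines: GLP mutants read 2.66, 2.41, 2.50 and 2.45 against controls of 1.84, 1.21, 0.86 and 1.06 (1.26 ± 0.22, 2.40-fold, adjusted p = 0.000141, limma). G9a mutants read 2.54, 1.98, 2.19 and 2.22 against 0.87, 0.50, 1.08 and 1.50 (1.24 ± 0.22, 2.37-fold, adjusted p = 0.000143). Every mutant lay above every control, and controls were above the array median, so here a detected gene rose; the changes of the lines were 0.02 ± 0.31 apart (adjusted p = 0.995). Outside striatum the Casq2 differences were -0.35 to 0.50 and none was called. Levels of region markers also differed in the G9a striatum. Of 8 cortex markers 3 rose there, with mean levels of 2.40 against 0.41 for Tbr1 and 1.26 against -1.62 for Neurod6. The summed level of the 9 striatum markers was 1220 to 1430 in mutants and 1450 to 1570 in controls, and that of 6 Drd1 neuron markers 622 to 679 and 708 to 835. The sums of 3 Drd2 neuron markers overlapped, at 382 to 512 and 501 to 548. No striatum, Drd1 or Drd2 marker was called there, and the striatum list shares genes with the other lists. Control Ryr1 was 1.03 in cortex and 3.79 in striatum of this line, and control Casq2 was 0.62 in cortex and 0.99 in striatum. In the GLP striatum no cortex marker was called, and the sums overlapped for striatum markers (1150 to 1360 and 1260 to 1350) and Drd1 markers (555 to 656 and 564 to 661). The part of these markers in the Ryr1 and Casq2 results was not tested. The Casq2 change differed across regions in the G9a line (adjusted p = 0.00911) and missed the threshold in the GLP line (adjusted p = 0.124).

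Casq1, the fast-muscle form, was not called in any comparison of mutants with controls, with or without the filter, and its differences were -0.43 to 0.25. In tissue controls it read 0.49 to 1.59 outside cortex and -1.11 to -0.48 in cortex. The cortex arrays are also the set with the different low end, so region and array set cannot be told apart for this step.

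**Figure D4:**
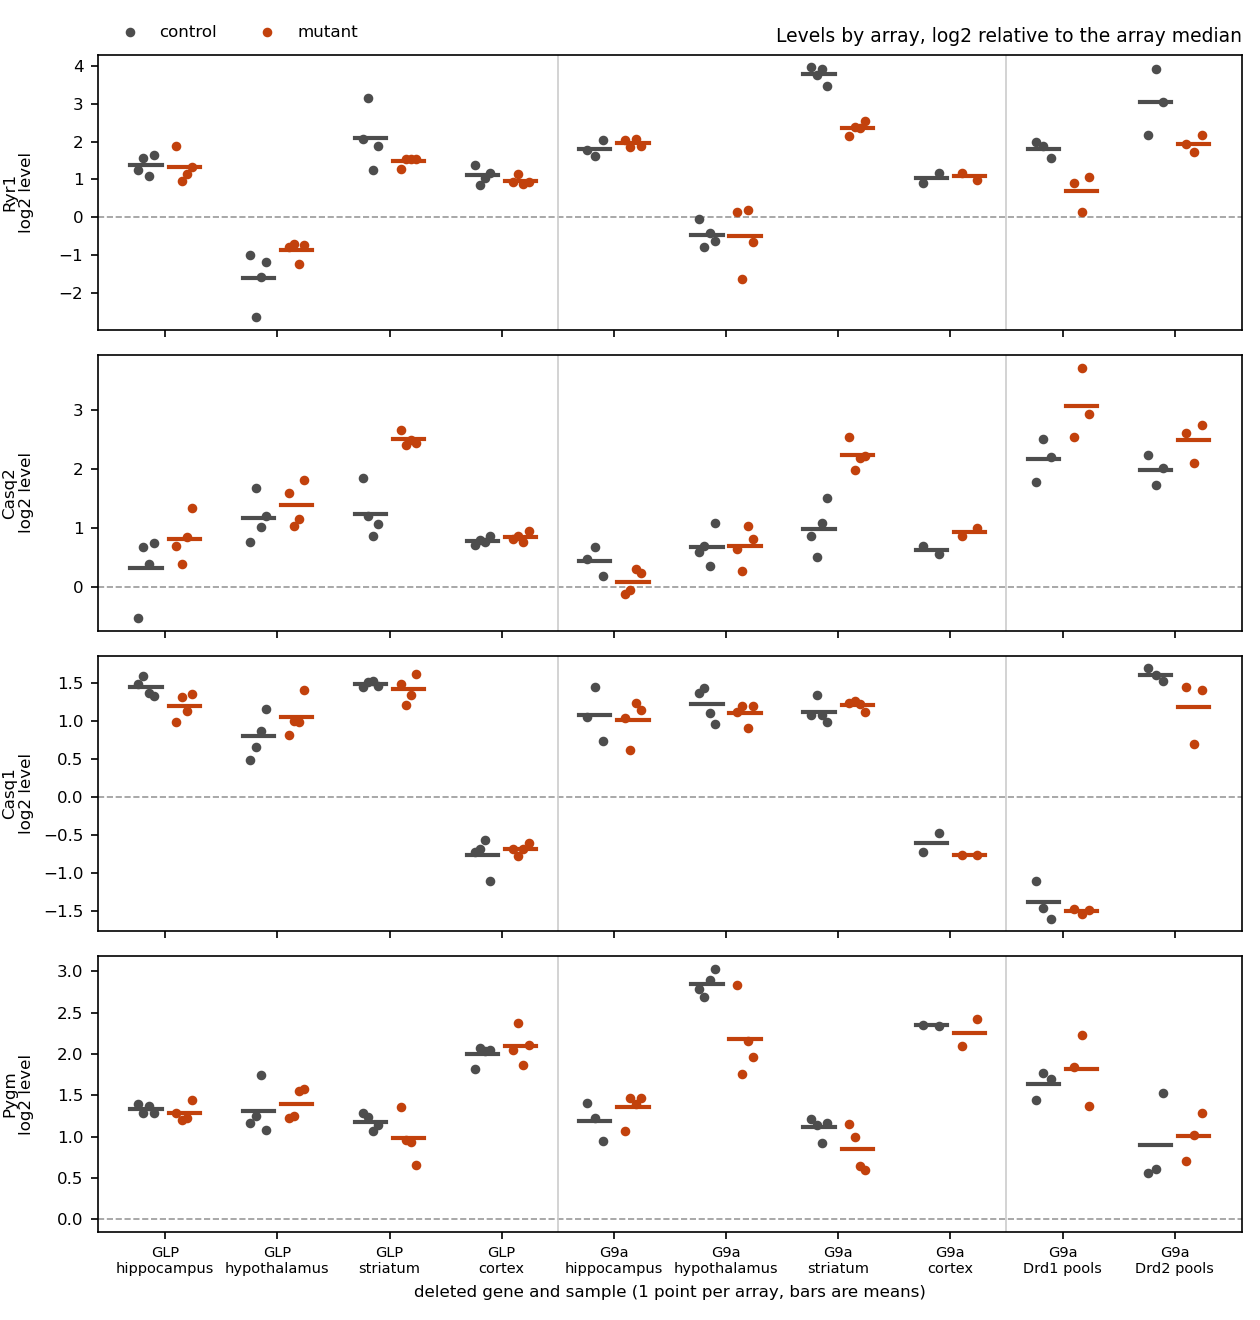
Level of Ryr1, Casq2, Casq1 and Pygm in each of the 71 arrays (points; log2, dashed line at the array median), controls in grey and mutants in orange, with group means as bars. Striatum separates mutants from controls upward for Casq2 in both lines and downward for Ryr1 in the G9a line, while Casq1 varies between regions and pools, and the 1 Pygm call is in the G9a hypothalamus.

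Chrna1, the receptor subunit, rose in the G9a hippocampus, and with no filter also in the GLP hippocampus and in cortex of both lines. In the G9a hippocampus mutants read 0.88, 0.90, 1.49 and 0.87 and controls -0.62, -0.31 and -1.18, a difference of 1.74 ± 0.22 (adjusted p = 5.39e-08; 2.55e-08 with no filter; limma). The mutant mean was 2.05-fold above the array median, and no control reached it. In the GLP hippocampus mutants at -0.25, 0.22, -0.05 and 0.22 lay above controls at -1.24, -1.15, -1.49 and -1.58 (1.40 ± 0.19, adjusted p = 8.27e-07 with no filter). In cortex all arrays were below the median, yet mutants at -1.41, -1.10, -0.89 and -1.22 (GLP) and -1.15 and -1.10 (G9a) lay above controls at -2.83, -2.37, -2.44 and -2.63 and at -2.37 and -2.37. Those cortex differences of 1.41 ± 0.19 and 1.24 ± 0.27 were called with no filter (adjusted p = 8.73e-07 and 0.00799). In hypothalamus and striatum Chrna1 differed by 0.05 to 0.39, and in the G9a line the change differed across regions (adjusted p = 0.00121).

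The 2 lines were set against each other in each region. None of 21 such differences of the members passed the threshold in limma, 4 had an unadjusted p under 0.05, and the lowest adjusted p was 0.262, for Pygm in hypothalamus (0.76 ± 0.22). Few genes pass this test: 0.157% in hippocampus, 0.00831% in hypothalamus, 0.00842% in striatum and 0.0168% in cortex. For Sln the lines were -0.69 ± 0.43 apart in hippocampus and 0.20 ± 0.51 in cortex, and for Pgam2 between -0.33 and 0.82 in the 4 regions. The standard errors of the Pgam2 differences were 0.32 to 0.40.

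In the polyribosome pools no member was called. Of 4 members tested in the Drd1 pools, 3 had an unadjusted p under 0.05, as did 2.34% of all genes tested, and 0.0249% of 12060 genes were called. Of 5 tested in the Drd2 pools, 2 did, as did 1.4% of all genes tested, and 0.0165% of 12107 genes were called, which is 2 genes, or 1 with the pool number as a block. For Pgam2, Drd1 mutants read 3.89, 4.73 and 4.35 and controls 3.31, 3.98 and 3.52 (0.72 ± 0.30, adjusted p = 0.943), overlapping. Drd2 pools labelled mutant read 3.96, 3.57 and 4.01 and controls 2.28, 2.61 and 2.85 (1.27 ± 0.30, adjusted p = 0.895), not overlapping, as held for 5.27% of all genes there and 8.06% in the Drd1 pools. The direction was that of the striatum, and the sizes were 0.72 and 1.27 beside 1.85 in whole G9a striatum.

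Ryr1 in the Drd1 pools read 0.92, 0.13 and 1.07 in mutants and 2.00, 1.88 and 1.56 in controls, apart by -1.10 ± 0.41 (adjusted p = 0.943). In the Drd2 pools it read 1.93, 1.72 and 2.19 against 2.17, 3.94 and 3.05, also -1.10 ± 0.41 (adjusted p = 1), with overlap from control 1. Casq2 read 2.55, 3.72 and 2.93 against 1.78, 2.51 and 2.21 in Drd1 (0.90 ± 0.35) and 2.61, 2.10 and 2.75 against 2.23, 1.73 and 2.01 in Drd2 (0.50 ± 0.35). The second Ryr1 probe set differed by -1.31 ± 0.72 in Drd1 and by -0.25 ± 0.72 in Drd2, with overlapping groups in both. Ryr1 and Casq2 thus had the sign of the whole striatum without passing the threshold. Sln and Chrna1 did not enter the filter in either pool type, with differences of -0.13 to 0.66.

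Between the control pools, Casq1 differed most. It read -1.10, -1.46 and -1.60 in Drd1 and 1.69, 1.60 and 1.53 in Drd2, lower in Drd1 by 2.99 ± 0.22 (adjusted p = 6.15e-06, limma; 15.4% of genes were called), which is at least 3.04-fold when Drd1 is taken at the array median. Pgam2 was higher in Drd1 by 1.03 ± 0.30 (adjusted p = 0.041). Ryr1 was 1.24 ± 0.41 apart, lower in Drd1 (log2 difference -1.24, adjusted p = 0.0619; 0.0482 with no filter). The 2 pool types also differ in array set, so neuron type and set cannot be told apart.

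Among tissue controls, the levels of the detected members differed across regions, as those of most genes did. All 5 members tested in GLP controls differed across regions, where 91.7% of genes did, and 4 of 5 did in G9a controls, where 85% did. Ryr1 was highest in striatum in both lines, with control means of 2.10 in GLP and 3.79 in G9a, and lowest in hypothalamus (-1.62 and -0.47); GLP striatum and hippocampus controls overlapped, while no neighbours in the order overlapped in G9a. Pgam2 was lowest in hypothalamus in both lines (-0.94 and -1.12), without overlap with the next region, and its other 3 regions overlapped in sequence. Pygm was highest in cortex in GLP controls (1.99) and in hypothalamus in G9a controls (2.85). Casq2 was highest in striatum in both (1.24 and 0.99) with overlap between all neighbours. Because the cortex arrays are the set with the different low end, region and array set cannot be told apart where cortex enters these comparisons.

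No relative of the members was called. Of 14 paralogs, which include the heart and brain forms Ryr2, Ryr3, Atp2a2, Pgam1, Pygb and Ckb and the SERCA inhibitor Pln, 0 were called in any of the 10 comparisons in limma, with or without the filter, and 9 of 110 tests had an unadjusted p under 0.05, beside 1.4% to 16.2% of all genes tested in the single comparisons. Pgam1, the common phosphoglycerate mutase, differed by -0.15 to -0.02 in the 8 tissues while Pgam2 rose. Ryr2 differed there by -0.17 to 0.16, Ryr3 by -0.34 to 0.01, and the housekeeping pump Atp2a2 by -0.13 to 0.15. The liver phosphorylase Pygl was higher in mutants in all 8 tissues, by 0.09 to 0.62 (lowest adjusted p = 0.0976 with no filter). Pygl gave 5 of the 9 tests with an unadjusted p under 0.05. Chrna2 and Chrna3 entered the filter in 0 comparisons and Chrna5 in 2. Pln differed most in the G9a hippocampus, by 1.09 ± 0.34 (adjusted p = 0.0778), where Sln rose.

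Of 29 other measured genes of muscle calcium release and uptake, Trdn was called. Trdn (triadin, which anchors calsequestrin at the ryanodine receptor) rose in the hippocampus of both lines, from controls all below the array median. In the GLP hippocampus it read 0.90, 0.33, 1.14 and 1.88 in mutants against -1.97, -2.22, -2.25 and -1.52 (3.06 ± 0.33, at least 2.09-fold, adjusted p = 2.83e-09). Its G9a hippocampus arrays read 0.67, 1.02, 0.02 and -0.63 against -2.06, -1.90 and -2.01 (2.26 ± 0.36, at least 1.20-fold, adjusted p = 1.64e-05). Trdn and Sln thus both rose in hippocampus. Of the choroid plexus markers named above, 10 of 11 rose in the GLP hippocampus and 1 of 11 in the G9a hippocampus, and their part in the Trdn rise was not tested. These 2 calls were the only ones among 171 tests of the list in the 8 tissues, and its median difference was -0.06 to 0.09 beside -0.05 to 0.04 over all genes.

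Of 27 measured genes of glycogen, glycolysis and energy supply, the hexokinase gene Hk2, which commits glucose to use in muscle, rose in 6 tissues. Its rise was 1.41 in GLP hippocampus, 1.22 in GLP hypothalamus and 0.90 in GLP cortex, and 1.48, 0.89 and 1.11 in the same regions of the G9a line (each SE 0.19 to 0.27; adjusted p at most 0.0201). Striatum gave 0.20 and 0.23 for Hk2, not called, although Pgam2 rose there. The phosphorylase kinase subunit Phkb rose by 0.35 in the GLP hippocampus (adjusted p = 0.0344), and no other gene of this list was called in the 161 tests. Of 15 measured genes of the neuromuscular junction, Utrn rose by 0.34 in the G9a hippocampus (adjusted p = 0.0298), the single call of 53 tests.

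Sarcomere genes build the contractile filaments. Of 40 measured, 3 to 7 rose in each tissue and 0 fell, 42 calls in 112 tests, where 0.728% to 3.02% of all genes were called. Genes high only in mutants enter the filter through them; with no filter 4 to 11 of the 40 rose in each tissue, and 1 fell, in the GLP hypothalamus. In both striatum comparisons these included Ttn and Tnnt2, and Tnnt2, the heart form of troponin T, rose in all 8 tissues by 1.65 to 3.56. This list was known from earlier results of the same data and is no independent evidence of a direction. Of 17 measured myogenic transcription factors, 4 were tested in each tissue and 0 were called, with 2 of 32 tests at an unadjusted p under 0.05. In the polyribosome pools none of these lists had a call.

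Markers of muscle tissue were read as a check of the samples. Of 12 skeletal muscle fibre markers, 7 to 11 were below the array median in every array of a group, and Acta1 was above it throughout. Their summed level was 13.2 to 16.5 in GLP cortex mutants and 8.14 to 10.6 in controls, and 14.5 to 15.2 against 8.93 to 9.01 in the G9a cortex, with 1 marker called in each; with no filter 4 of the 12 rose in the GLP cortex and 1 in the G9a cortex. In hippocampus the sums overlapped, at 7.65 to 9.75 against 6.3 to 7.95 in the GLP line and 7.06 to 9.96 against 6.41 to 9.18 in the G9a line. Of 8 heart markers, the sum was 28.1 to 30.3 against 7.32 to 17.9 in the GLP cortex and 24.6 to 26.5 against 6.94 to 8.58 in the G9a cortex. No heart marker was called in either cortex, with or without the filter. Among them, Myl4, a myosin light chain, had mean log2 levels of 4.75 against 3.10 in the GLP cortex and of 4.56 against 2.49 in the G9a cortex. In the GLP hippocampus the heart sum was 3.16 to 3.73 against 2.07 to 2.49, and that of 10 vascular smooth muscle and pericyte markers 154 to 183 against 131 to 139, with 2 of the latter called. In the G9a hippocampus 3 of 10 meninges and fibroblast markers, 2 of 8 cortex markers and 1 vascular marker rose. The part of these markers in the cortex and hippocampus results for Sln, Chrna1 and Trdn was not tested.

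Across the 16 tissue group means, each member was set beside the genes of most similar pattern. For Pgam2 these were Olfml3 (r = 0.920), Kcnk6 (0.912) and Ctnnb1 (0.892). For Sln they were Cst12 (0.893), Lama2 (0.889) and Aldh3a1 (0.874), and for Chrna1 Npy5r (0.941), Arsi (0.931) and Apaf1 (0.900). For Casq2 they were Brca1 (0.885), Tnni1 (0.882) and Gtf2a1l (0.881), Tnni1 being the slow-muscle troponin I. Ryr1 was nearest to Map6d1 (0.969), Klf16 and Dgat2, Casq1 to Dhx15 (0.975), Cryl1 and Depp1, Pygm to Gpkow (0.948), Hdac6 and Chrnb2, Ckm to Brsk1 (0.969), Ccrl2 and Esrrb, and Atp2a1 to Cxcl5 (0.875), Rhbdf2 and Ntng2. These Pearson correlations over 16 means share arrays, regions and array sets, and are given as a description.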

How the data were processed

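RNA of 71 mouse samples was hybridised to Affymetrix arrays, after 2 rounds of amplification per the labels' protocols. The deposited intensity values are linear with a median of 1 per array; the submitters' processing notes name GCRMA, with no version given in the sources used here. Background-corrected low intensities carry little information, so values below the median were treated as low. Values were taken to log2. Of 45101 probe sets, 34945 had 1 gene symbol, 932 had several and 9160 were not listed in the platform table used.

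The 59 tissue arrays and the 12 polyribosome arrays were fitted separately in limma 3.58.1 (R 4.3.3; Python 3.11.15) with 1 mean per group, an intensity trend and Benjamini-Hochberg adjustment at 0.05. All 9 members, and the paralogs, are named always, up to 4 called genes per list and comparison by smallest p, and the 3 genes of nearest pattern per member. The members and lists were chosen with earlier results of these data known. Where the labels name no separate animals, p-values measure the spread between samples. Simulated data with 200 changed genes had noise drawn independently for each array, with 1 spread per gene shared by all arrays. Unequal spread between arrays or groups was left out, so the shares below hold for such noise only. Of changes of 1 log2 unit, 92% were recovered in the GLP hippocampus (11681 genes), 77% in the G9a cortex (11679 genes) and 22% in the Drd1 pools (12060 genes). Of the calls in these simulations, 6.8%, 7.33% and 4.3% were false. Mutants and controls of 1 number were correlated in each comparison. Only in the Drd2 pools did every pair exceed 0.1, with correlations of 0.16, 0.38 and 0.48. The G9a hypothalamus pairs gave 0.64, 0.43, -0.01 and 0.40, and the Drd1 pairs -0.06, 0.08 and -0.30. The main fits did not pair the numbers. Samples of 1 line, genotype and number in different regions also deviated together in part (54 of 82 pairs over 0.1), so regions may share mice; tests across regions take the arrays as independent, and were repeated with a random block (consensus correlation 0.0387). Alternatives varied the filter, a floor, normalisation, the arrays fitted, the prior, array weights, probe sets, the replicate block and each left-out array. A term for sex, and the random block in tests across regions and between lines, were added after seeing the data. Sex was inferred from the level of Xist in each array.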

Additional observations from a re-analysis of the deposited data

Results flagged for a closer look

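In 117 combinations of a member and a group of 4 arrays, 9 had an array far from the other 3, where chance gives about 1 in 20. In the GLP striatum, mutant 1 stood apart for Ryr1 at 1.28 and for Chrna1 at -1.46, and control 3 for Pgam2 at 1.90. In the GLP cortex, control 3 stood apart for Pgam2 at 1.64, and control 1 for Pygm at 1.82 and for Ckm at -1.86. In the G9a hippocampus, mutant 3 was high for Chrna1 at 1.49 and mutant 1 low for Pgam2 at 2.81, and GLP hypothalamus control 4 stood apart for Atp2a1 at -2.78.

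The mutant change of 3 members differed between regions by the moderated F test in limma. For Sln the adjusted p was 0.000466 in the GLP line and 0.000566 in the G9a line. For Chrna1 and Casq2 it was 0.00121 and 0.00911 in the G9a line.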

How the results depend on the processing

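Of the 16 calls of members, 14 held in every setting that tested them and with each array left out. The stricter filter, above 1 in place of 0, left Pgam2 in the GLP hypothalamus and Chrna1 in the G9a hippocampus untested. The calls lost in some setting were Pygm in the G9a hypothalamus and Pgam2 in the G9a cortex, as given with their values above. None of 33 uncalled differences between mutants and controls was called by an alternative, and 7 changed sign in a setting that kept all arrays. Leaving out an array changed the sign of others, such as Ryr1 (from 0.05 to as low as -0.08) and Pygm (from -0.08 to as high as 0.08) in the G9a cortex. No called value reversed. Counts of genes called moved more, and the cause was not tested. With array weights they were 723 in GLP hippocampus, 77 in GLP hypothalamus, 828 in GLP cortex, 617 in G9a hippocampus, 2823 in G9a hypothalamus, 1083 in G9a striatum, 474 in G9a cortex, 22 in Drd1 and 12 in Drd2 pools. With the compared groups alone they were 39 in GLP hypothalamus, 112 in GLP striatum, 365 in GLP cortex, 186 in G9a hippocampus, 20 in G9a hypothalamus, 312 in G9a cortex and 0 in Drd1 pools, and for GLP against G9a 7 in hippocampus, 0 in hypothalamus, 0 in striatum and 4 in cortex. Quantile normalisation gave 532 in G9a hypothalamus, 4 in Drd2 pools and 9 for the lines in hypothalamus. The replicate block gave 456 in G9a hypothalamus and 1 in Drd2 pools and changed no other count by over 1.5 times. Over 35 pairs of one number, 17 correlated above 0.1 and 13 samples correlated best with their own number. The mean of all probe sets gave 5 in Drd1 pools. No filter gave 37 and 7 for the lines in hippocampus and hypothalamus, 206 for the GLP regions and 4380 for the control pools. Values below the median set to it gave 56, 27, 13 and 9 for the lines in hippocampus, hypothalamus, striatum and cortex, and 260 for the GLP regions.

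Leaving out 1 array gave 77 to 189 genes in GLP hypothalamus, 177 to 340 in G9a hippocampus, 132 to 2051 in G9a hypothalamus (2051 without mutant 2), 216 to 363 in G9a striatum, 46 to 50 in G9a cortex, 2 to 8 in Drd1 and 1 to 2 in Drd2 pools. For GLP against G9a the ranges were 8 to 39 in hippocampus, 0 to 221 in hypothalamus (221 without G9a mutant 2) and 0 to 9 in striatum. Without G9a hypothalamus mutant 1 the Pygm difference between the lines was called (adjusted p = 0.0178). With values below the median set to it, the Chrna1 difference between the lines in hippocampus was called (adjusted p = 1.2e-08), as were the regional differences of Casq2 in GLP (0.0284) and of Ryr1 and Pgam2 in G9a (5.97e-05 and 3.85e-06). The random block across regions kept the calls of Sln, Chrna1 and Casq2 in tests across regions, and Ryr1 in G9a passed the threshold there (adjusted p = 0.0482). Signals below the array median limit what can be said of Ckm, Atp2a1 and most Sln and Chrna1 controls.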
